A study of Mus musculus with 4 samples.

Results

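The genes described here are Cd274, the gene of the PD-1 ligand PD-L1, Pdcd1lg2, the gene of the other ligand PD-L2, and Cmtm6 and Cmtm4, which encode membrane proteins that stabilise PD-L1. They were taken by name, as 4 of the 53379 genes counted, and 3 of the 4 had enough reads to be tested, among 13792 genes in all. RNA was sequenced from malignant cells sorted out of subcutaneous MC38 tumors in C57BL/6 mice, with 2 libraries from tumors labelled responder and 2 from tumors labelled non-responder. The MC38 line comes from a mouse colon adenocarcinoma, was used as MC38-GFP+, and 50000 cells were inoculated per mouse. Both groups had received anti-PD-1 antibody at a sub-optimal dose of 100 µg, on day 12, day 15, day 18 and day 22, and no untreated tumor is among the libraries. The labels give no age or sex of the mice, do not give the way response was scored, and name no mouse for a library. Replicates of a group differed by more than counting error but may still come from the same mouse. The p-values cover the variation among these libraries only.

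PD-1 is an inhibitory receptor of activated T cells, and PD-L1 or PD-L2 on another cell engages it and dampens T cell signalling. PD-L1 is made by many cell types, tumor cells included, and its gene is induced by interferon gamma through the receptor chains IFNGR1 and IFNGR2, the kinases JAK1 and JAK2 and the factor IRF1. PD-L2 is made chiefly by dendritic cells and macrophages. CMTM6 binds PD-L1 at the cell surface and in recycling endosomes and protects it from degradation, and CMTM4 can stand in for it, so both act on the protein and not on the transcript. These roles were worked out largely in human cells.

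Total counts were 20458601 and 18447041 in responder replicates 1 and 2, and 21754063 and 21670040 in non-responder replicates 1 and 2. Levels are given as CPM, that is reads scaled to the library total corrected by a scaling factor per library (TMM). The sorted cells lacked the epithelial and colonic genes of the tissue of origin. Summed over 7 markers (Epcam, Krt8, Krt18, Krt19, Cdh1, Vil1 and Cdx2) the level was 2.48 and 1.94 CPM in responder libraries. It was 0.725 and 3.23 CPM in non-responder libraries. Leukocyte transcripts remained and differed between libraries. The 9 pan-leukocyte markers summed to 12.9 and 48.1 CPM in responder replicates 1 and 2, and to 46.3 and 124 CPM in non-responder replicates 1 and 2. Most of the 12.9 CPM came from Itgb2, which varied less, with 10.6 and 13.1 CPM in responder and 13.3 and 20.7 CPM in non-responder libraries. Ptprc had 0.644 and 6.91 CPM in responder and 5.94 and 22.6 CPM in non-responder libraries. All 9 had negative log2 fold changes, with median -1.76 (-4.51 to -0.68 with a library left out). Groups did not overlap for 3 of the 9, and 0 passed after adjustment. The 10 fibroblast markers, several of which mesenchymal tumor cells can also make, summed to 8615 and 7423 CPM in responder libraries and to 9991 and 16274 CPM in non-responder libraries, most of it from the collagen gene Col3a1 (6897 and 5792 CPM in responder libraries, 7598 and 13391 CPM in non-responder libraries). Gene by gene they were mostly lower in responders: the median log2 fold change was -1.22 (-1.45 to -0.93 with a library left out), against -0.01 over all tested genes. Groups did not overlap for 8 of the 10, against 36.5% of all tested genes, and 7 had an unadjusted edgeR p under 0.05, against 6.21%, while 0 passed after adjustment. The list was chosen with earlier results of these data known, so these shares only describe it. Col1a2 went the other way, with 126 and 20.3 CPM in responder libraries, against 72.3 and 51.6 CPM in non-responder libraries. Postn, the periostin gene, which changed most of the 10, had 16.8 and 19.1 CPM in responder libraries, against 127 and 57.7 CPM in non-responder libraries. The part of the difference in fibroblast markers in the results on the ligand and CMTM genes was not tested. In such bulk samples fewer cells of a type and less RNA per cell cannot be told apart. Non-responder replicate 1 stood apart in interferon response genes, as described below, and results that rest on it are given with and without it.

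Cd274 was abundant in the tumor cells, and its level differed more between the non-responder libraries than between the groups. It had 114 and 130 CPM in responder replicates 1 and 2, against 36.5 and 101 CPM in non-responder replicates 1 and 2. Both responder libraries were higher than both non-responder libraries, but non-responder replicate 2 lay close to them and only non-responder replicate 1 was far below. Means were 122 ± 10.8 CPM in responder and 68.6 ± 45.4 CPM in non-responder libraries (SD, n = 2 each), 1.78-fold higher in responders with a 95% interval of 0.669 to 4.71. The log2 fold change of 0.83 (SE 0.52) did not pass edgeR's quasi-likelihood test with Benjamini-Hochberg adjustment over all genes tested (adjusted p = 0.854).

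That comparison rested on which non-responder library was used. Without non-responder replicate 1 the log2 fold change of Cd274 was 0.28 (SE 0.20). Without non-responder replicate 2 it was 1.74 (SE 0.21). Each of these fits assumes that the lone library left in its group varies like the other group, so no p is given for them. The gap between the non-responder libraries themselves was 2.76-fold, or 1.46 on the log2 CPM scale, at least as large as the gap between these replicates in 96.3% of tested genes, whatever its direction. The responder replicates differed by 0.18 on the same scale.

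Pdcd1lg2 was at or near the limit of detection in every library. It had 0 reads in responder replicate 1 and 1 read in responder replicate 2, against 1 read in non-responder replicate 1 and 5 reads in non-responder replicate 2. A count of 0, taken to allow up to 3 reads, allows up to 0.149 CPM in responder replicate 1. The exact two-sided Poisson 95% interval of the 5 reads in non-responder replicate 2 is 1.62 to 11.7 reads. These intervals and limits cover counting error only. With 7 reads over all libraries, against 7779 reads of Cd274, Pdcd1lg2 did not enter the test over genes and no fold change is given. A difference between responders and non-responders was not detectable at this depth.

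The library with the most Pdcd1lg2 reads was also the one with the most leukocyte transcripts. Macrophage and monocyte markers, 11 genes, summed to 14.0 and 85.3 CPM in responder replicates 1 and 2, and to 89.0 and 236 CPM in non-responder replicates 1 and 2. Most of the 14.0 CPM came from Cd68, which was nearly level, with 9.47 and 9.21 CPM in responder and 9.13 and 10.0 CPM in non-responder libraries. C1qb had 0.297 and 13.3 CPM in responder and 13.2 and 40.9 CPM in non-responder libraries. All 11 had negative log2 fold changes, with median -1.91 (-5.02 to -0.89 with a library left out). Groups did not overlap for 3 of the 11, and 0 passed. Of 8 dendritic cell markers, Itgax, the integrin chain CD11c, had 4 and 62 reads in responder libraries and 38 and 193 reads in non-responder libraries. Zbtb46, a transcription factor gene of conventional dendritic cells, was level across the libraries, with 10.2 and 9.84 CPM in responder libraries and 9.32 and 8.83 CPM in non-responder libraries. Of the other 6, each had at most 16 reads in any library: Xcr1 had 0 and 5 reads in responder libraries and 0 and 6 reads in non-responder libraries, and Ccl22 had 0 and 2 reads in responder libraries and 1 and 3 reads in non-responder libraries. The part of leukocytes in the Pdcd1lg2 reads was not tested. Responder replicate 1 had the lowest summed leukocyte level and 114 CPM of Cd274. The part of leukocytes in the Cd274 reads was not tested either.

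Cmtm6 was steady across the libraries. It had 41.6 and 39.6 CPM in responder replicates 1 and 2, against 42.9 and 48.3 CPM in non-responder replicates 1 and 2. Both responder libraries were lower, by little. Means were 40.6 ± 1.42 CPM in responder and 45.6 ± 3.79 CPM in non-responder libraries (SD, n = 2 each). The log2 fold change was -0.17 (SE 0.17, edgeR adjusted p = 0.896), a responder level of 0.890 times the non-responder level with a 95% interval of 0.683 to 1.16.

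Cmtm4 had 141 and 125 CPM in responder replicates 1 and 2, against 116 and 122 CPM in non-responder replicates 1 and 2. Both responder libraries were higher, by 125 against 122 CPM in the nearest pair. Means were 133 ± 10.9 CPM in responder and 119 ± 4.23 CPM in non-responder libraries (SD, n = 2 each), 1.12-fold higher with a 95% interval of 0.850 to 1.48 (log2 fold change 0.16, SE 0.17, edgeR adjusted p = 0.903). In TPM, which are scaled for transcript length and carry no TMM factor, the groups overlapped for both stabiliser genes. Length is the same in every library, so this change comes from the scaling between libraries. By library total alone Cmtm6 also overlapped, with 41.0 and 41.0 CPM in responder and 40.8 and 49.7 CPM in non-responder libraries. Cmtm4 did not, with 139 and 130 CPM in responder and 110 and 125 CPM in non-responder libraries.

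Cd274, Cmtm6 and Cmtm4 thus all had groups that did not overlap in CPM, 2 with both responder libraries higher and 1 with both lower. Over all tested genes 36.5% had groups that did not overlap in either direction, 18.8% with responders higher and 17.7% with responders lower, so this separation is common among these libraries. No member passed the test, and neither did any of the 13792 genes (0%), the smallest adjusted p being 0.111. Before adjustment 856 genes (6.21%) had p under 0.05, no member among them, while DESeq2 called 62 (0.450%) and limma-voom 0. Fits with a library left out rest on a lone library in a group, so their calls are not counted here.

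**Figure D1:**
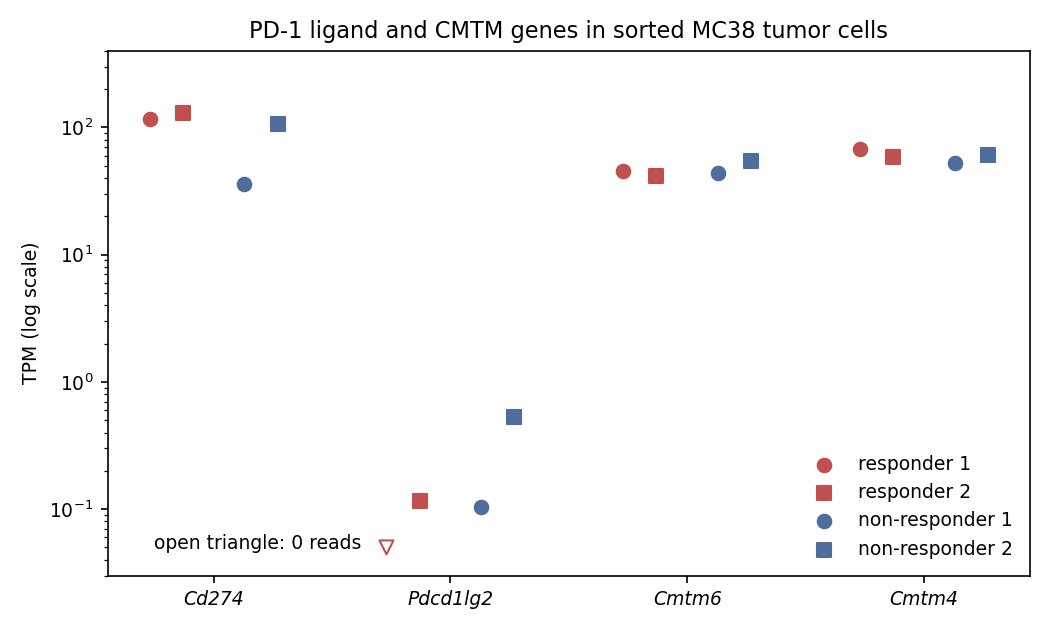
TPM on a log axis for each gene in each library, with responder libraries in red on the left and non-responder libraries in blue on the right of each gene, and an open triangle for a library with 0 reads. Cd274 lies between 35.7 and 130 TPM with non-responder replicate 1 lowest, Pdcd1lg2 lies at or below 0.526 TPM, and Cmtm6 and Cmtm4 lie between 41.7 and 67.6 TPM.

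Per length, Cd274 transcripts outnumbered those of its stabilisers in 3 of 4 libraries. Averaged over all libraries, levels were 97.5 TPM for Cd274, 60.0 TPM for Cmtm4, 46.2 TPM for Cmtm6 and 0.186 TPM for Pdcd1lg2. Among genes with a read in any library these means stood at the percentiles 93.3, 88.9, 86.1 and 30.4. The ratio of Cd274 to Cmtm6 in TPM was 2.61 and 3.11 in responder libraries, against 0.809 in non-responder replicate 1 and 1.98 in non-responder replicate 2. The ratio was thus higher in both responder libraries, and Cd274 was below Cmtm6 in 1 library alone. The ratio of Cmtm4 to Cmtm6 was 1.50 and 1.41 in responder libraries and 1.20 and 1.12 in non-responder libraries, a narrow range. The ratio of Cd274 to Cmtm4 was 1.73 and 2.21 in responder libraries and 0.675 and 1.77 in non-responder libraries, so the groups overlapped. The responder minus non-responder difference in the log2 ratio was 1.17 for Cd274 to Cmtm6 and 0.33 for Cmtm4 to Cmtm6, each with p = 0.333 by an exact two-sided permutation test (adjusted p = 0.500 over the 3 ratios), the smallest that 2 libraries against 2 can give. For Cd274 to Cmtm4 the difference was 0.84 (exact permutation p = 0.667, adjusted p = 0.667). Without non-responder replicate 1 the difference was 0.52 for Cd274 to Cmtm6 and 0.15 for Cd274 to Cmtm4, and without non-responder replicate 2 it was 1.82 and 1.54 for the same ratios, values chosen after seeing the data and with no test.

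**Figure D2:**
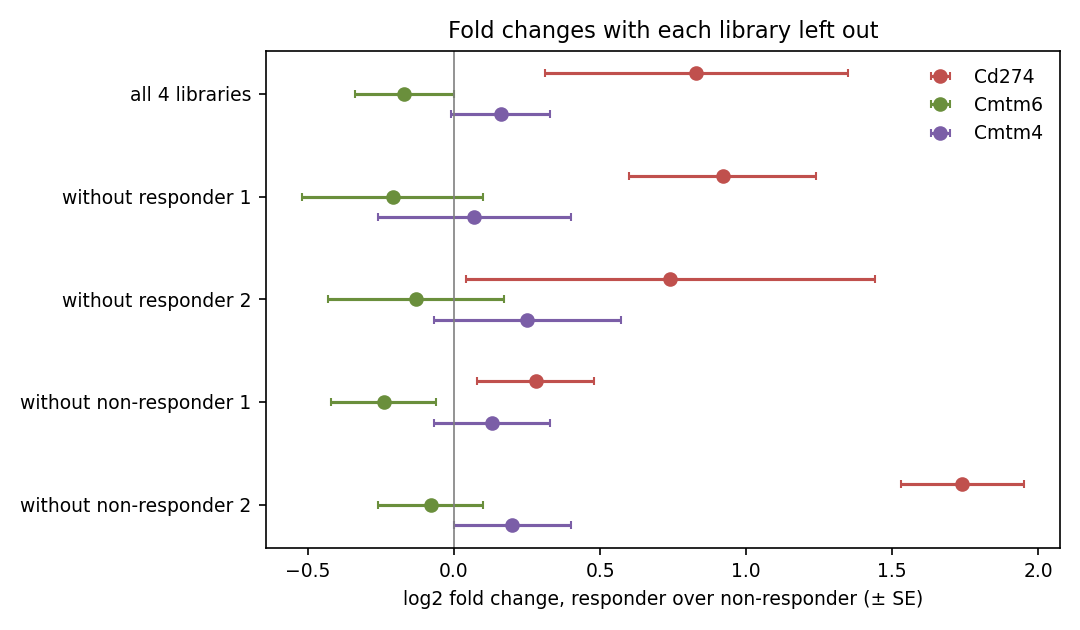
Log2 fold change of responder over non-responder with its standard error for the 3 tested genes, fitted on all 4 libraries and with each library left out. Cd274 moves between 0.28 and 1.74 depending on the non-responder library left out, while Cmtm6 stays between -0.24 and -0.08 and Cmtm4 between 0.07 and 0.25.

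The ligand genes are neighbours and differed strongly in level. On the mm10 build, Cd274 (ENSMUSG00000016496) spans chromosome 19 from 29367455 to 29388095 on the plus strand, and Pdcd1lg2 (ENSMUSG00000016498) starts 22823 bases further on and runs from 29410919 to 29471157 on that strand. Plgrkt, a plasminogen receptor gene, is transcribed the other way and its annotated start lies 64 bases from that of Cd274. Reads were counted by strand, so the pair could be told apart. Plgrkt had 43.8 and 59.3 CPM in responder libraries and 38.3 and 57.7 CPM in non-responder libraries, with groups that overlap and a gap of 0.59 between the non-responder replicates on the log2 scale, against 1.46 for Cd274. Ric1, downstream of Pdcd1lg2 and encoding a Golgi trafficking factor, had 89.1 and 77.9 CPM in responder libraries and 92.2 and 95.9 CPM in non-responder libraries. Ermp1, an endoplasmic reticulum metallopeptidase gene beyond it, had 225 and 193 CPM in responder and 229 and 189 CPM in non-responder libraries, again overlapping. Jak2, the interferon receptor kinase gene on the same chromosome, had 71.1 and 59.6 CPM in responder and 78.7 and 71.2 CPM in non-responder libraries. Plgrkt was lowest in non-responder replicate 1 by a small margin, and Ric1, Ermp1 and Jak2 were not lowest there.

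Cmtm6 (ENSMUSG00000032434) spans chromosome 9 from 114731116 to 114749344 on the plus strand beside its relative Cmtm7, and Cmtm4 (ENSMUSG00000096188) spans chromosome 8 from 104348191 to 104395807 on the minus strand beside its relatives Cmtm3 and Cklf. The family encodes proteins with a MARVEL membrane domain. Of the 8 other family genes, 3 were tested and 5 (Cmtm1, Cmtm2a, Cmtm2b, Cmtm5 and Cmtm8) had 0 reads in every library. Cmtm3 was the most abundant per length, with 143 and 148 TPM in responder libraries and 157 and 161 TPM in non-responder libraries. Cmtm7 had 42.9 and 43.3 TPM in responder and 37.1 and 46.6 TPM in non-responder libraries, close to Cmtm6, and Cklf, a secreted chemokine-like member, had 5.18 and 7.41 TPM in responder and 5.08 and 7.07 TPM in non-responder libraries. The median log2 fold change of the 3 tested relatives was 0.06, against -0.01 over all tested genes. It ran from -0.16 to 0.16 with a library left out, and 0 of 3 passed.

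The promoter windows of the ligand genes and of Cmtm4 are shown because the genes differ so much in level and in spread between libraries. Each runs from 250 bases before to 50 bases after the RefSeq start (RefSeq, GRCm38.p6), 5′ to 3′ on the strand of the gene. Capitals mark matches to a core site of interferon regulatory factors, AANNGAAA, or to the NF-kB consensus, on either strand.
Cd274, chr19:29367188-29367487, plus strand: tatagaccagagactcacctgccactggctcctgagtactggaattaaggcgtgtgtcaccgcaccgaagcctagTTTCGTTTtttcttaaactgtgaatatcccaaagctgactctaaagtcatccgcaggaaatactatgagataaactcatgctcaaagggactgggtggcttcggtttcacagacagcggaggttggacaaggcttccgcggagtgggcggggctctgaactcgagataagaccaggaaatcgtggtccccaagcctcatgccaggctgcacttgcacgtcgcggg
Pdcd1lg2, chr19:29410669-29410968, plus strand: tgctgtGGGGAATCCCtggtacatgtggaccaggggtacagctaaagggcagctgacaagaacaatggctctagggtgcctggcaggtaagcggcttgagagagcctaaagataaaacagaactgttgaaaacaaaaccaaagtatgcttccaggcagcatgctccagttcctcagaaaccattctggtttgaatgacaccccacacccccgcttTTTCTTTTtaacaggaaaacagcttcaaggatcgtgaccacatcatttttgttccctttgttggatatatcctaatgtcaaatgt
Cmtm4, chr8:104395758-104396057, minus strand: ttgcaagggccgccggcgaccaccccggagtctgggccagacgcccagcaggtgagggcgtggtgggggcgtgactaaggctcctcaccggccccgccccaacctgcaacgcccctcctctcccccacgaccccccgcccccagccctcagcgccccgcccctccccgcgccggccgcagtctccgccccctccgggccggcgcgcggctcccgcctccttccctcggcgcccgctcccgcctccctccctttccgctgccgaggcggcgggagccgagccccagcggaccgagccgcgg

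All 4 genes had a window in the RefSeq table, and 7 motifs were searched on both strands. The core site AANNGAAA occurred once each in the windows of Cd274, Pdcd1lg2 and Cmtm6 and was absent from that of Cmtm4, and 23.9% of 32851 windows hold it. The NF-kB consensus occurred once, in the Pdcd1lg2 window, and is held by 4.51% of windows. The core ACGTG of hypoxia-response elements occurred once, in the Cd274 window, and is held by 19.6% of windows. The full interferon-stimulated response element, which is that core preceded by the letters GA, was in none of the 4 windows and is in 3.44% of all. Likewise the gamma-activated site TTCNNNGAA (8.3% of windows), the AP-1 site TGANTCA (7.81%) and the E-box CACGTG (7.15%), which contains the hypoxia core, were in none of the 4. Composition differed more than these matches did: the Cmtm4 window was 79.7% G and C with 38 CpG dinucleotides and the Cmtm6 window 55.7% with 22, against 52.7% with 15 for Cd274 and 46% with 3 for Pdcd1lg2, where the median window had 7. A match in a window is a description of the sequence and not a bound site.

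The genes whose pattern was most like that of Cd274 were interferon-inducible. By root-mean-square difference in mean-centred log2 CPM over the 4 libraries, among 9721 other genes of at least 5 CPM, the nearest was Apol9a, an apolipoprotein L family gene, at 0.032, followed by the guanylate-binding protein genes Gbp2 at 0.108 and Gbp4 at 0.132. Apol9a had 53.7 and 64.6 CPM in responder libraries, against 17.5 and 49.3 CPM in non-responder replicates 1 and 2. Gbp4 had 465 and 566 CPM in responder libraries, against 160 and 526 CPM in non-responder replicates 1 and 2. Each was lowest in non-responder replicate 1, as Cd274 was, which follows from choosing them by likeness to Cd274 in these same libraries. The overlapping RefSeq windows of Apol9a and the window of Gbp2 hold the full response element that the Cd274 window lacks. No window of Gbp4 was among those searched.

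The genes nearest to Cmtm6 and Cmtm4 were flat ones. For Cmtm6 they were the zinc-finger gene Zfp217 and the sorting nexin gene Snx19, each at 0.014, and Xbp1, the unfolded protein response factor, at 0.016. Xbp1 had 97.3 and 90.0 CPM in responder and 97.9 and 110 CPM in non-responder libraries. Among those for Cmtm4 was Acaca, the acetyl-CoA carboxylase of fatty acid synthesis, at 0.016, with 60.9 and 55.7 CPM in responder and 50.6 and 53.9 CPM in non-responder libraries. Flat genes are numerous, so small distances are easily reached and say little of the gene.

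Along the route from interferon gamma to Cd274, genes went different ways: the receptor and kinase genes were not lowest in non-responder replicate 1, while Stat2, Irf1 and Irf9 were. Of 13 genes in the list, 12 were tested, 5 higher and 7 lower in responders with a median log2 fold change of -0.05 (-0.08 to 0.00 with a library left out), and 0 passed. Ifng itself, the cytokine gene of T and NK cells, had 1 and 2 reads in responder libraries and 0 and 3 reads in non-responder libraries, where 8 T and NK cell markers summed to 0.446 and 1.41 CPM in responder and 0.918 and 3.23 CPM in non-responder libraries. Ifngr1 had 65.1 and 72.4 CPM in responder and 67.9 and 93.2 CPM in non-responder libraries, and Ifngr2 60.0 and 58.4 CPM in responder and 61.0 and 62.6 CPM in non-responder libraries. Stat2, which with IRF9 forms part of a factor that acts on interferon-stimulated genes, had 249 and 272 CPM in responder libraries, against 115 and 278 CPM in non-responder replicates 1 and 2. Irf1, the factor that acts on the PD-L1 gene, had 406 and 454 CPM in responder libraries, against 287 and 460 CPM in non-responder replicates 1 and 2. The feedback inhibitor gene Socs1 had 9.02 and 14.3 CPM in responder libraries, against 4.15 and 10.9 CPM in non-responder replicates 1 and 2. For Stat2, Irf1 and Socs1 alike the groups overlapped, because non-responder replicate 2 lay within or above the responder range. Irf9 and Socs3 were also lowest in non-responder replicate 1. Ptpn2, the gene of a phosphatase that dampens the pathway, ran the other way, with 105 and 87.9 CPM in responder libraries, against 126 and 80.3 CPM in non-responder replicates 1 and 2. In all, 5 of the 12 tested genes (41.7%) were lowest in non-responder replicate 1, not far from the 33.3% of all tested genes, so the list as a whole did not stand out.

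**Figure D3:**
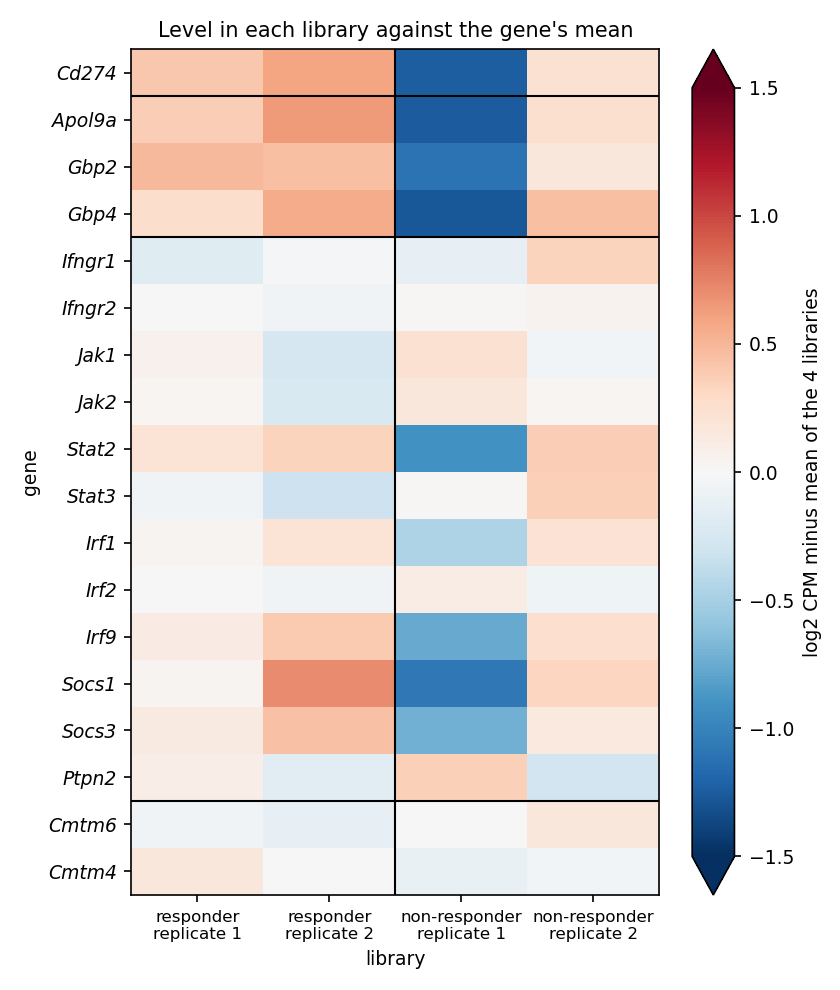
Log2 CPM minus the gene's mean over the 4 libraries, for Cd274, the 3 genes nearest to it, the 12 tested genes of the route from interferon gamma, and Cmtm6 and Cmtm4, with responder libraries on the left. Non-responder replicate 1 is the low column for Cd274, and for Apol9a, Gbp2 and Gbp4, which were chosen by likeness to it. It is also the low column for Stat2, Irf1, Irf9, Socs1 and Socs3, and not for Ifngr2, Jak1 or Jak2.

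A wider list of interferon gamma response genes showed the same library in most of its genes. The list shares Irf1 and Socs1 with the route above and holds Gbp2, one of the genes found by likeness to Cd274. It was chosen with earlier results of these data known, so its counts only describe these libraries. Which interferon lay behind the levels of its genes, if any, was not tested. Of 25 tested genes, 21 were higher in responders and 4 lower, 0 passed, and the median log2 fold change was 0.37. The lowest of the 4 libraries was non-responder replicate 1 for 22 of the 25 (88%), against 33.3% of all tested genes. Without that library the median was -0.02, and without non-responder replicate 2 it was 1.22. Igtp, an immunity-related GTPase gene, had 503 and 544 CPM in responder libraries, against 95.1 and 450 CPM in non-responder replicates 1 and 2. Nlrc5, the transactivator of class I antigen presentation genes, had 154 and 177 CPM in responder libraries, against 41.2 and 169 CPM in non-responder replicates 1 and 2. Groups did not overlap for 9 of the 25, near the 36.5% of all tested genes, and all 9 were higher in responders, a direction held by 18.8% of all tested genes. Gbp7, another guanylate-binding protein gene, had the smallest p of the list (log2 fold change 0.70, edgeR adjusted p = 0.796).

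Receptors and other partners of the ligands were mostly absent from the tumor cells. Pdcd1, which encodes PD-1, had 1 and 2 reads in responder libraries and 1 and 2 reads in non-responder libraries. Cd80, which encodes a co-stimulatory ligand that also binds PD-L1 on the same cell, had 1 and 1 reads in responder libraries and 0 and 8 reads in non-responder libraries. Rgmb, which encodes a binding partner of PD-L2, had 16.3 and 21.2 CPM in responder and 19.1 and 24.2 CPM in non-responder libraries, with overlapping groups (log2 fold change -0.21, edgeR adjusted p = 0.910). Of the 6 other B7 family ligand genes listed, 4 were tested and all 4 were lower in responders, with 0 passing. Their median log2 fold change was -1.19 (-2.42 to -0.62 with a library left out). Groups did not overlap for 2 of the 4, against 36.5% of all tested genes. Cd86 had 3 and 15 reads in responder libraries and 19 and 75 reads in non-responder libraries. Vsir, which encodes VISTA, had 5 and 52 reads in responder libraries and 51 and 150 reads in non-responder libraries. Both genes are also made by macrophages, whose summed markers are given above, and the part of macrophages in them was not tested. Cd276, which encodes B7-H3, had 0.958 and 1.40 TPM in responder and 2.20 and 1.75 TPM in non-responder libraries. Per length, Cd274 was higher than each of these B7 genes in every library.

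Genes that act on PD-L1 protein after translation showed small differences. Their roles on PD-L1 are known largely from human cells. All 24 in the list were tested, 10 higher and 14 lower in responders, with a median log2 fold change of -0.02 (-0.20 without responder replicate 1, and -0.10 to 0.02 without another library), and 0 passed. Groups did not overlap for 11 of 24, 4 higher and 7 lower, against 36.5% of all tested genes. B3gnt3, a glycosyltransferase that modifies PD-L1, had 137 and 122 CPM in responder and 174 and 209 CPM in non-responder libraries, a log2 fold change of -0.57 (SE 0.19). It had the smallest p of the list (edgeR adjusted p = 0.728).

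The other genes of that list are named by step. Stt3a, a catalytic subunit of the oligosaccharyltransferase that N-glycosylates PD-L1, had 319 and 268 CPM in responder and 376 and 322 CPM in non-responder libraries. The deubiquitinase gene Usp22 had 170 and 143 CPM in responder and 225 and 177 CPM in non-responder libraries. Cops5, which encodes the deubiquitinating COP9 signalosome subunit CSN5, had 101 and 96.5 CPM in responder and 88.6 and 106 CPM in non-responder libraries. The first pair had both responder libraries lower, and Cops5 overlapped. Among ubiquitin ligase genes, Stub1 had 66.1 and 74.6 CPM in responder and 59.9 and 72.4 CPM in non-responder libraries, and Spop 198 and 172 CPM in responder and 187 and 186 CPM in non-responder libraries. The sheddase gene Adam10, whose product can cut PD-L1 from the surface, had 154 and 121 CPM in responder and 190 and 169 CPM in non-responder libraries. Hip1r, which routes PD-L1 to lysosomes, had 30.4 and 31.4 CPM in responder and 24.8 and 25.7 CPM in non-responder libraries, with both responder libraries higher.

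**Figure D4:**
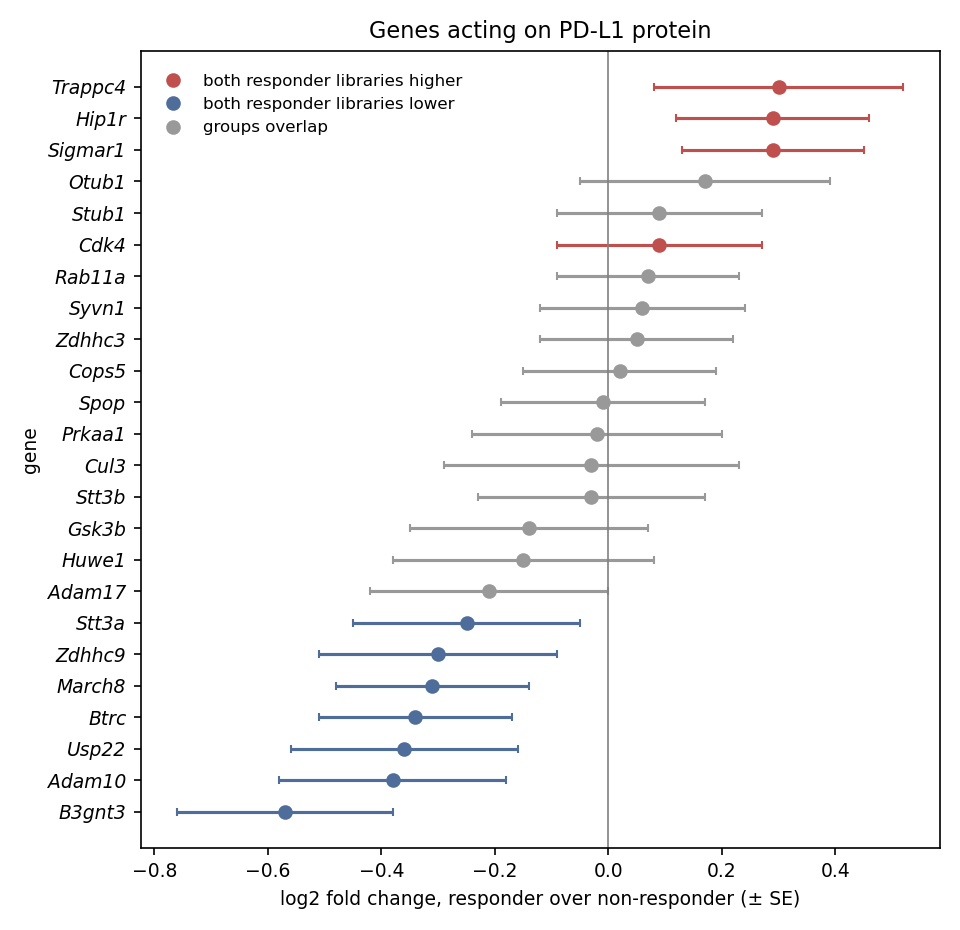
Log2 fold change of responder over non-responder with its standard error for the 24 genes acting on PD-L1 protein, sorted by value, with colour for groups that do not overlap. Values run from -0.57 for B3gnt3 to 0.30 for Trappc4, 10 above and 14 below 0.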

How the data were processed

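Bulk RNA-seq of sorted MC38 tumor cells gave 4 libraries, grouped by their titles. The deposited values are raw read counts per gene, 1 file per library: per the file headers the authors ran featureCounts 1.6.1, reverse-stranded (setting 2), on Ensembl release 91, and per the submitters' processing notes STAR aligned reads to mm10 (GRCm38). STAR's version is not given in the sources used here. Multi-mapping reads were not requested.

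Symbols were matched for 53274 of 53379 identifiers. Counts were tested with edgeR 4.0.16 (R 4.3.3) using filterByExpr (minimum count 10), TMM scaling (factors 0.952 to 1.04) and a robust quasi-likelihood fit on group, with p adjusted by the Benjamini-Hochberg method at 0.05. CPM are TMM-scaled; TPM use the files' exon lengths. The standard error is the size of the log2 fold change over the root of F, and 95% intervals use t quantiles on the fit's total degrees of freedom. Replicates were not duplicates (chi-square per degree of freedom 22.5 in responders and 66.3 in non-responders). The fit was tested on simulated data.

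Members and lists were chosen with earlier results of these data known. Named genes are the members, the listed genes, 3 chromosomal neighbours a side and the 3 genes nearest in pattern, and some of them are not reported here and are left out of the list counts. Alternatives were DESeq2 1.42.0, limma-voom (limma 3.58.1), other scalings and filters, the replicate number as a block, and each library left out.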

Additional observations from a re-analysis of the deposited data

How the results depend on the processing

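Scaling by RLE, upper quartile or library size, a filter of 5 CPM in 2 libraries, and limma-voom left 0 genes called, while no low-count filter gave 212, the replicate block 32 and DESeq2 62, and an unadjusted p under 0.05 gave 856. Leaving out a library gave 41 to 516. The log2 fold change of Cd274 was 0.28 to 1.74 with a library left out. It passed without non-responder replicate 2 (1.74, edgeR adjusted p = 7.87e-05) and under none of the other 11 alternatives, over all of which the adjusted p ran up to 1.00. Cmtm6 kept its sign at -0.24 to -0.08 and Cmtm4 at 0.07 to 0.25 under all 12 alternatives, and neither passed. With the replicate block Cd274 was at 1.00 (edgeR adjusted p = 0.418), Cmtm6 at -0.17 and Cmtm4 at 0.16. Deviations of same-numbered libraries correlated at 0.373 across genes, but the numbers come from the titles alone and nothing in the labels ties such libraries together, so the main fit has no block and whether they are paired is not settled here. With a library left out, which was chosen for the ratios after seeing the data, the log2 ratio difference was 0.52 to 1.82 for Cd274 to Cmtm6, 0.15 to 1.54 for Cd274 to Cmtm4 and 0.28 to 0.38 for Cmtm4 to Cmtm6. Pdcd1lg2 has a value only without the filter, where its edgeR adjusted p was 0.868 among 29612 genes. Of 52 list medians with a library left out, 35 moved by less than the spread between replicates and 17 by more.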

Other observations

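Other regulators of the PD-L1 gene had a median log2 fold change of -0.03 (-0.13 to 0.20 with a library left out) over 12 tested genes, 4 higher and 8 lower in responders, and 0 passed edgeR's test over all genes. The oncogene Myc, which acts on the PD-L1 promoter, had 199 and 185 CPM in responder and 173 and 121 CPM in non-responder libraries, and the NF-kB subunit gene Nfkb1 had 184 and 169 CPM in responder and 145 and 154 CPM in non-responder libraries. In each, both responder libraries were higher, as in 18.8% of all tested genes. Hif1a, the hypoxia factor gene, had 340 and 247 CPM in responder and 470 and 253 CPM in non-responder libraries and was highest in non-responder replicate 1. Groups did not overlap for 4 of the 12 genes, against 36.5% of all tested genes, so the list did not stand out in this.

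Genes acting on the stability of PD-L1 mRNA, 5 in the list and all tested, went both ways at a median log2 fold change of 0.04 (-0.07 to 0.16 with a library left out), with 0 passing. Zfp36 encodes tristetraprolin, which destabilises transcripts with AU-rich elements. It had 62.6 and 118 CPM in responder and 53.6 and 60.5 CPM in non-responder libraries (log2 fold change 0.66, edgeR adjusted p = 0.796). Its relative Zfp36l1 had 362 and 306 CPM in responder libraries, against 689 and 351 CPM in non-responder replicates 1 and 2. Non-responder replicate 1, the library lowest in Cd274, was thus highest in Zfp36l1 but lowest in Zfp36. The part of either gene in the level of Cd274 was not tested. Elavl1, which encodes the stabilising protein HuR, had 188 and 178 CPM in responder and 164 and 157 CPM in non-responder libraries.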
